A study of Mus musculus with 15 samples.

Results

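Markers of primitive, visceral and definitive endoderm were followed in mouse embryonic stem cells (ESCs) and during induction to epiblast-like cells (EpiLCs), with and without the autophagy gene Atg7. The genes were chosen by name and not by a rule on their values, though earlier results of these data were known. They are Gata4, Gata6, Sox17, Sox7, Pdgfra, Dab2, Foxa2, Hnf4a, Afp and Ttr, which are 10 of the 24982 gene symbols counted. Of these, 9 had enough reads to be tested and 1, Ttr, had not. The cells are labelled E14TG2, a mouse ESC line. ESCs of genotype Control at day 0 had been kept on inactivated mouse embryonic fibroblasts, called feeder cells, in medium with LIF and the inhibitors PD0325901 and CHIR99021. Control and Atg7 KO cells were taken at day 2 and day 4 of EpiLC induction with activin A and bFGF on fibronectin. Each of the 5 groups (ESC, d2-Control, d2-Atg7 KO, d4-Control and d4-Atg7 KO) had 3 libraries of polyadenylated RNA. No day 0 Atg7 KO library was analysed here, and the labels do not say how the KO was made or how many clones it is.

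The primitive endoderm is the extraembryonic lineage that separates from the epiblast in the blastocyst. FGF signalling and the factor GATA6 drive cells towards it, while NANOG holds cells in the epiblast, and GATA4, SOX17 and SOX7 act after GATA6. Its descendants are the parietal endoderm, which lays down basement membrane, and the visceral endoderm, which takes up and secretes nutrients and switches on HNF4A, alpha-fetoprotein (AFP) and transthyretin (TTR). FOXA2 and SOX17 also mark definitive endoderm, which arises later from the epiblast, so these genes do not by themselves tell both endoderms apart.

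Promoter windows from RefSeq (GRCm38.p6), reaching from 250 bases before to 50 bases after a transcription start, were found for 5 of the genes (9 windows for Pdgfra, Dab2, Foxa2, Hnf4a and Afp). They were searched on both strands for the GATA cores AGATAA and TGATAA, the forkhead motif TGTTTAC and the SOX motif ACAATG, because most of these genes moved together and 5 of them encode GATA, SOX or forkhead factors. A GATA core was found in 3 of the 9 windows (1 each for Dab2, Foxa2 and Hnf4a). Of all 32851 windows of the same length, 18.6% hold at least 1 of both GATA cores, 3.65% hold the forkhead motif and 12.6% the SOX motif. The other motifs were not matched in the 9 windows. The sequences with a core are shown 5′ to 3′ on the strand of the gene, without exon bases except for Hnf4a, where the core meets an annotated exon and only 30 bases are given, with the core in capitals. The Dab2 stretch is chr15:6299539-6299787 (plus strand), with the core starting 179 bases before the start site. The Foxa2 stretch is chr2:148045465-148045714 (minus strand), with the core 183 bases before the start site of 1 of its 3 windows. The Hnf4a stretch is chr2:163506793-163506822 (plus strand), with the core 52 bases before the start site. A further AGATAA in the Dab2 window begins 14 bases after the start site. These are matches of letters, and no binding was measured.
Dab2: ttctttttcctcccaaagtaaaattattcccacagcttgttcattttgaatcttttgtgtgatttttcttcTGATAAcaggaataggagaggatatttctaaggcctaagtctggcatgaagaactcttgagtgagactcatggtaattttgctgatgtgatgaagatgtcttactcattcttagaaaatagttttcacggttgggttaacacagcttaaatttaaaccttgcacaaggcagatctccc
Foxa2: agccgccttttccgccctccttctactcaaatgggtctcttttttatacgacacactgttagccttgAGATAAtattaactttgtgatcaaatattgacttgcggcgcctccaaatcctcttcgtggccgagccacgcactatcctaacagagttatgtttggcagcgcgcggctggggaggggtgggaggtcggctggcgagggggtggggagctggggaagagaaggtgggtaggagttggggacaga
Hnf4a: gaagaatcaataAGATAAccgggcggggtg

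Totals lay between 14059237 and 23371546 counts per library. Levels are given as CPM, the counts scaled to the library total after TMM adjustment, and group values are mean ± SD of 3 libraries. The words rose, fell, higher and lower are kept for differences where edgeR's quasi-likelihood test gave a Benjamini-Hochberg adjusted p under 0.05 over the 15696 genes tested, and fold changes are log2 values ± standard error of that fit of all 15 libraries. Whether replicates were separate cultures is not stated in the labels, and the p-values cover only the spread among these libraries, which may be technical. Atg7 counts, over the whole gene and so not limited to a deleted part, lay below control in every KO library of each day, at 6.83 to 7.53 CPM against 12.1 to 14.6 CPM at day 2 and 10.4 to 12.7 CPM against 19.1 to 19.9 CPM at day 4. The ESC libraries stood apart in Hprt, at 182 to 203 CPM, while the other 12 libraries had 1.59 to 2.93 CPM. Mutation of Hprt is a known feature of the E14TG2a line, so for any comparison with the ESCs a difference of line and a difference of day cannot be told apart. The ESC libraries also differed in the level of fibroblast genes, and whether that RNA came from feeder cells was not measured. The summed level of 16 fibroblast genes was 2100, 1080 and 293 CPM in ESC replicates 1, 2 and 3. ESC replicate 3 had 47.5 CPM summed over 9 genes of the 2-cell-like state, while replicates 1 and 2 had 11.3 and 12.6 CPM. In bulk RNA, fewer cells of a type and less RNA per cell cannot be told apart.

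Compared per base of annotated exon (GENCODE M21, GRCm38), the genes at day 4 in control ranked with Dab2 first, at 21.8 ± 5.11 RPKM (CPM per kilobase). Gata6 followed at 12.9 ± 0.332 RPKM, Gata4 at 8.30 ± 1.45 RPKM, Pdgfra at 6.57 ± 0.888 RPKM and Sox7 at 5.87 ± 0.648 RPKM. Hnf4a, at 1.72 ± 0.315 RPKM, Afp, at 1.56 ± 0.0715 RPKM, Sox17, at 1.4 ± 0.146 RPKM, and Foxa2, at 1.10 ± 0.368 RPKM, came after, and Ttr was last at 0.248 ± 0.133 RPKM. Neighbours from Gata4 to Sox7, and from Hnf4a to Foxa2, lay within each other's spread, while Sox7 and Hnf4a did not. The sources used here do not give the exon lengths of the authors' counting, so the order rests on the GENCODE lengths.

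In control cells, 6 of the 9 tested genes rose from ESCs to day 2, where 35.6% of all tested genes were higher and 34.9% lower, and the other 3 did not pass. From day 2 to day 4, 8 of 9 rose and Gata6 did not pass, against 33.9% higher and 34.6% lower among all tested genes, and over the 4 days all 9 rose at least 2-fold, against 19% of all tested genes called and higher by that much. The median log2 change of the 9 was 1.61 up to day 2 and 1.68 from day 2 to day 4, while the median of all genes was 0.02 and -0.01. Groups did not overlap for 9 of 9 between ESC and day 4, all with day 4 above, where 35.5% of the tested genes had day 4 wholly above. The comparisons share the day 2 or the ESC libraries, so their values are not independent of one another.

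**Figure D1:**
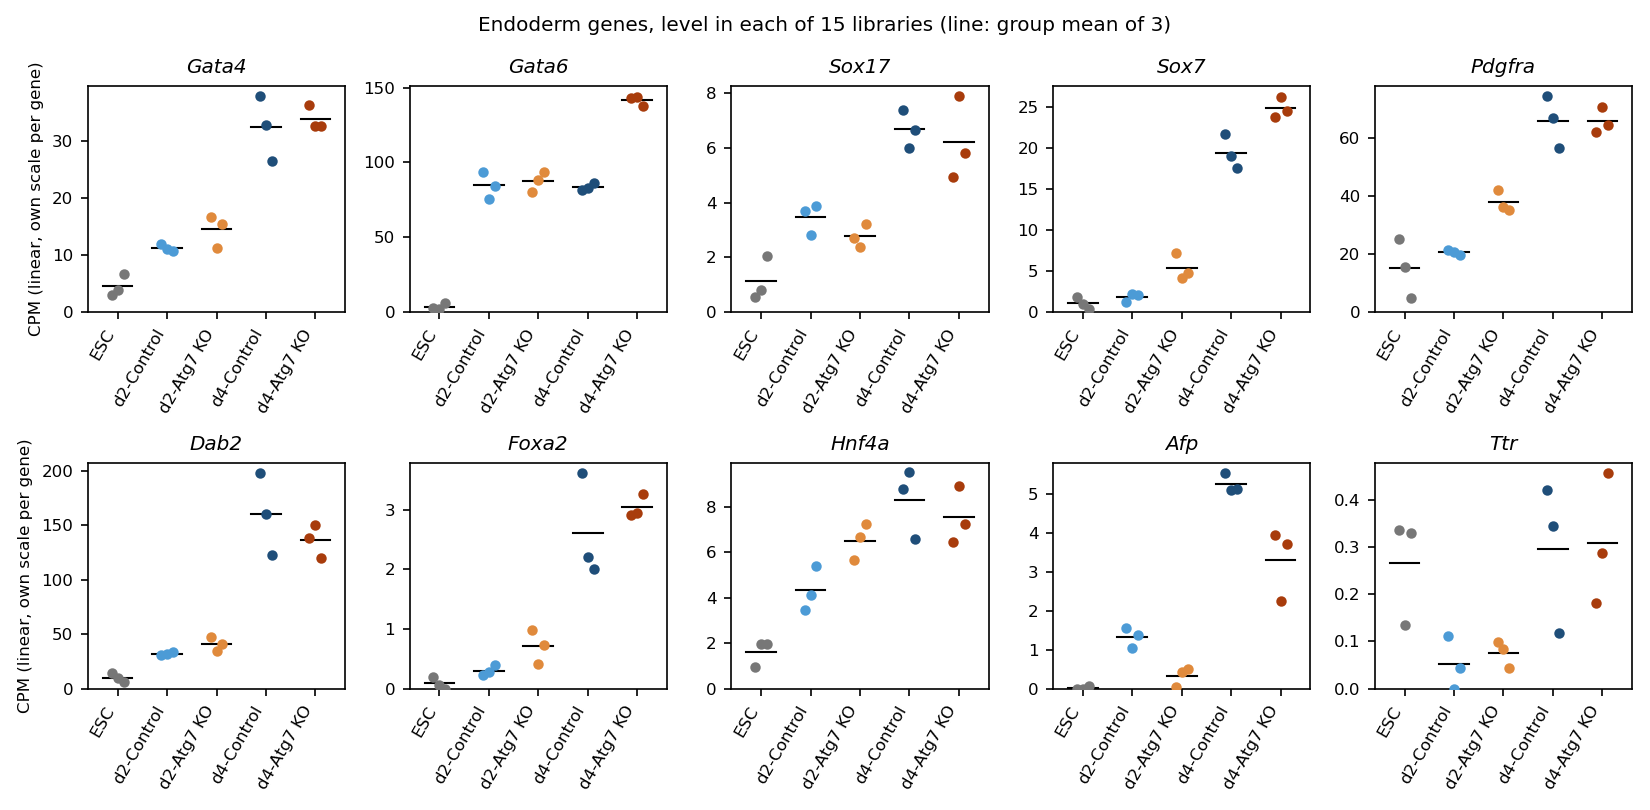
Level of each of the 10 genes in each of the 15 libraries, in CPM on a linear axis that starts at 0 and has its own scale per gene, by group, where a point is a library and a line the mean of 3. Gata6 reached its control level at day 2 (84.6 CPM) and had it at day 4 (83.6 CPM), while Sox7, Dab2 and Foxa2 had their largest step between day 2 and day 4, and Ttr stayed under 0.5 CPM throughout.

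Gata6 (chromosome 18 at 11052064 to 11085635, plus strand), the zinc finger factor at the head of the primitive endoderm programme, had its whole rise by day 2. Its ESC libraries had 2.89, 2.03 and 6.20 CPM, followed by 93.7, 75.7 and 84.4 CPM at day 2 in control and 81.7, 83.2 and 86.0 CPM at day 4 in control. Every day 2 library was above every ESC library, and both days overlapped. The rise to day 2 was 4.50 ± 0.20 (22.7-fold, edgeR adjusted p = 1.43e-11), and the step from day 2 to day 4, -0.02 ± 0.14, did not pass (edgeR adjusted p = 0.926). The genes of chromosome 18 as a whole had a median of -0.12 in the first comparison and 0.35 in the second, and the medians of the other autosomes and X were between -0.18 and 0.39 in the second. Gata4 (chromosome 14 at 63198922 to 63271692, minus strand), its paralog, rose in both steps. Its levels were 2.95, 3.86 and 6.72 CPM in ESCs, 11.9, 11 and 10.7 CPM at day 2 and 37.9, 32.8 and 26.5 CPM at day 4, with no overlap between the 3 groups. The steps were 1.31 ± 0.23 (edgeR adjusted p = 7.88e-05) and 1.53 ± 0.19 (edgeR adjusted p = 2.75e-06).

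The paralogs Sox17 and Sox7, HMG box factors of the SOXF group, followed different courses. Sox17 (chromosome 1 at 4490931 to 4497354, minus strand) was 0.537, 0.812 and 2.04 CPM in ESCs, 3.68, 2.83 and 3.89 CPM at day 2 and 7.39, 6 and 6.65 CPM at day 4. It rose by 1.61 ± 0.34 to day 2 (edgeR adjusted p = 0.000485) and by 0.95 ± 0.28 to day 4 (edgeR adjusted p = 0.00625). Sox7 (chromosome 14 at 63943673 to 63950732, plus strand) was 1.88, 1.01 and 0.330 CPM in ESCs and 1.28, 2.22 and 2.03 CPM at day 2, so that both groups overlapped. At day 4 it was 21.7, 19 and 17.5 CPM, far above both. Its first step, 0.80 ± 0.39, did not pass (edgeR adjusted p = 0.0768), and its second was 3.37 ± 0.28 (10.4-fold, edgeR adjusted p = 2.22e-08).

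Pdgfra (chromosome 5 at 75152292 to 75198215, plus strand) encodes a PDGF receptor of primitive endoderm that fibroblasts carry too, and Dab2 an endocytic adaptor. Pdgfra was 25.1, 15.6 and 4.81 CPM in ESCs, 21.4, 20.8 and 19.7 CPM at day 2 and 74.3, 66.8 and 56.6 CPM at day 4. The ESC and day 2 libraries overlapped, and the first step of 0.45 ± 0.31 did not pass (edgeR adjusted p = 0.21). The second step was 1.68 ± 0.29 (edgeR adjusted p = 7.41e-05). Dab2 (chromosome 15 at 6299788 to 6440712, plus strand) had ESC levels of 14.5, 9.87 and 5.87 CPM, then 31.0, 31.5 and 33.5 CPM at day 2 and 198, 160 and 123 CPM at day 4. Neither step overlapped, with rises of 1.67 ± 0.23 (edgeR adjusted p = 7.21e-06) and 2.32 ± 0.20 (edgeR adjusted p = 3.11e-08).

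Foxa2, Hnf4a, Afp and Ttr, named above for visceral or definitive endoderm, were low. So was Sox17, also named there, with 6.68 CPM at day 4 in control, against 8.29 CPM for Hnf4a. Foxa2 (chromosome 2 at 148042877 to 148046969, minus strand), a forkhead factor, had 3, 1 and 0 counts in the ESC libraries and 4, 6 and 9 at day 2, and its change of 1.69 ± 0.74 did not pass (edgeR adjusted p = 0.0515). At day 4 it had 60, 32 and 34 counts, or 2.60 ± 0.873 CPM, a rise of 3.08 ± 0.41 from day 2 (edgeR adjusted p = 4.77e-06). Hnf4a (chromosome 2 at 163506808 to 163572910, plus strand), a nuclear receptor of visceral endoderm and liver, was 0.940, 1.96 and 1.98 CPM in ESCs, 3.46, 4.11 and 5.4 CPM at day 2 and 8.77, 9.52 and 6.59 CPM at day 4. It rose by 1.41 ± 0.27 (edgeR adjusted p = 0.000177) and then by 0.93 ± 0.22 (edgeR adjusted p = 0.00153).

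Afp (chromosome 5 at 90490737 to 90508907, plus strand), the gene of the fetal serum protein that visceral endoderm secretes, had 0, 0 and 1 counts in the ESC libraries. It had 28, 22 and 32 counts at day 2 and 92, 74 and 87 at day 4, and no groups overlapped. Against the single ESC count the level was 59.1-fold higher at day 2 (95% counting interval 10.3 to 2360) and 236-fold higher at day 4 (41.9 to 9350), exact binomial intervals that cover counting error only. The step from day 2 to day 4 was 1.98 ± 0.33 (edgeR adjusted p = 5.89e-05). Ttr (chromosome 18 at 20665280 to 20674321, plus strand), which encodes a thyroid hormone and retinol carrier, had at most 7 counts in any library. Its 3 libraries together had 12 counts in ESCs, 3 at day 2 and 14 at day 4 in control.

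**Figure D2:**
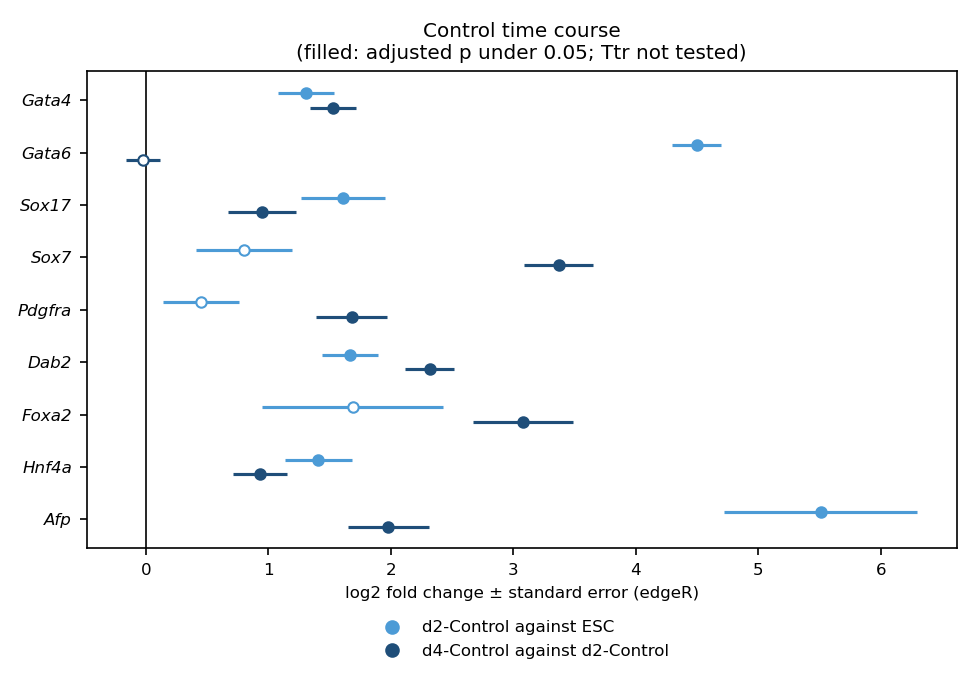
Log2 fold change ± standard error (edgeR) of the 9 tested genes in control cells, from ESC to day 2 (light) and from day 2 to day 4 (dark), where filled points have an adjusted p under 0.05. Gata6 and Afp had the largest first steps, 4.50 and 5.51, and Sox7 and Foxa2 the largest second steps, 3.37 and 3.08.

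The 3 ESC libraries disagreed in a patterned way. Pdgfra, Dab2 and Sox7 were highest in ESC replicate 1 and lowest in replicate 3, the same order as the fibroblast sum, and Pdgfra ranged 25.1 to 4.81 CPM. Foxa2, with 3, 1 and 0 counts, had that order too. Gata4, Sox17 and Hnf4a had the opposite order, although Hnf4a was nearly equal in replicates 2 and 3 (1.96 and 1.98 CPM). Gata6 too was highest in replicate 3, at 6.20 CPM against 2.89 and 2.03 CPM. Without ESC replicate 3, the rises to day 2 of Gata4, Gata6 and Sox17 were 1.72, 5.10 and 2.35. Without ESC replicate 1, Sox7, Pdgfra and Foxa2 also passed from ESC to day 2, at 1.47, 1.02 and 2.95, so that all 9 genes were higher, and without d2-Control replicate 1 Sox7 (0.99) and Foxa2 (1.85) passed. With a feeder score as a covariate (the mean log2 CPM of Col1a1, Col1a2 and Col3a1), Sox17 at 0.69 (edgeR adjusted p = 0.0866) did not pass from ESC to day 2 and Pdgfra at 1.72 (edgeR adjusted p = 5.35e-05) did. With that covariate, Sox17 at 0.16 (edgeR adjusted p = 0.874) and Hnf4a at 1.33 (edgeR adjusted p = 0.115) did not pass between ESCs and day 4, and from day 2 to day 4 only Sox7, Pdgfra, Dab2 and Foxa2 did. The fibroblast sum went down from day 2 to day 4. It was 362 to 409 CPM at day 2 and 137 to 145 CPM at day 4 in control, with all 16 genes detected in each group. ESC replicates 1 and 2 lay above every day 2 control library in this sum, and ESC replicate 3, at 293 CPM, lay below. From ESC to day 2, 3 of the 16 genes were higher and 9 lower. The summed level of the 2-cell-like genes lay between 11.3 and 47.5 CPM in ESCs, between 40.8 and 55.2 CPM at day 2 in control and between 372 and 473 CPM at day 4 in control. That of 8 mesoderm and cardiac genes lay between 6.72 and 7.44 CPM, between 10.6 and 10.9 CPM and between 13.1 and 15.1 CPM in the same groups. Of 7 tested endothelial genes, 3 were higher and 1 lower from ESC to day 4 in control, where 36.2% of all tested genes were higher and 35.6% lower. In ESCs, at day 2 and at day 4, Cdh5 had 0, 0.87 and 4.43 CPM and Kdr 0.577, 1.5 and 10.4 CPM. Pecam1 had 203, 298 and 159 CPM. The part of these cell types in the result was not tested.

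**Figure D3:**
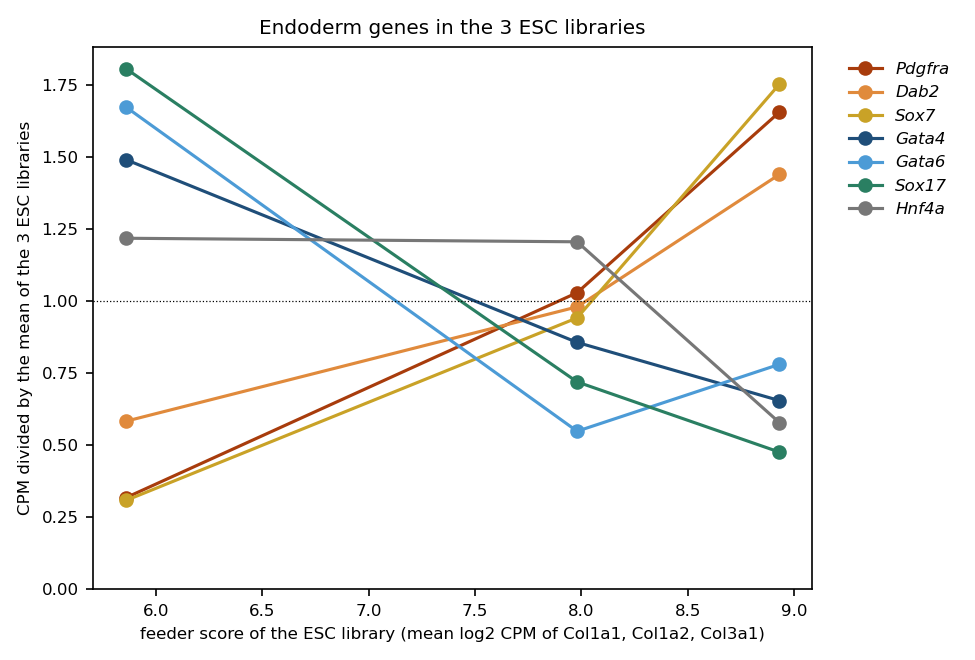
CPM in each of the 3 ESC libraries divided by the mean of the 3, against the feeder score of the library (mean log2 CPM of Col1a1, Col1a2 and Col3a1), for the 7 endoderm genes with at least 5 counts in every ESC library. Pdgfra, Dab2 and Sox7 climb with the score from replicate 3 (5.86) over replicate 2 (7.98) to replicate 1 (8.93), while Gata4 and Sox17 decline. Hnf4a is nearly level from replicate 3 to replicate 2 and lower in value in replicate 1.

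In KO against control, 5 of the 9 genes were called at day 2 and 1 at day 4. At day 2, 4 of the 9 were higher in KO (Sox7, Pdgfra, Foxa2 and Hnf4a) and 1, Afp, was lower, while 20.4% of all tested genes were higher and 21.4% lower. The share of called genes, 5 of 9, was near the 41.8% of all tested genes called. At day 4 Gata6 alone was higher and the other 8 did not pass, where 19.5% of all tested genes were higher and 18.1% lower, 37.6% in all. The median log2 difference of the 9 was 0.37 at day 2 and -0.01 at day 4, and the median of all genes was -0.01 on both days.

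**Figure D4:**
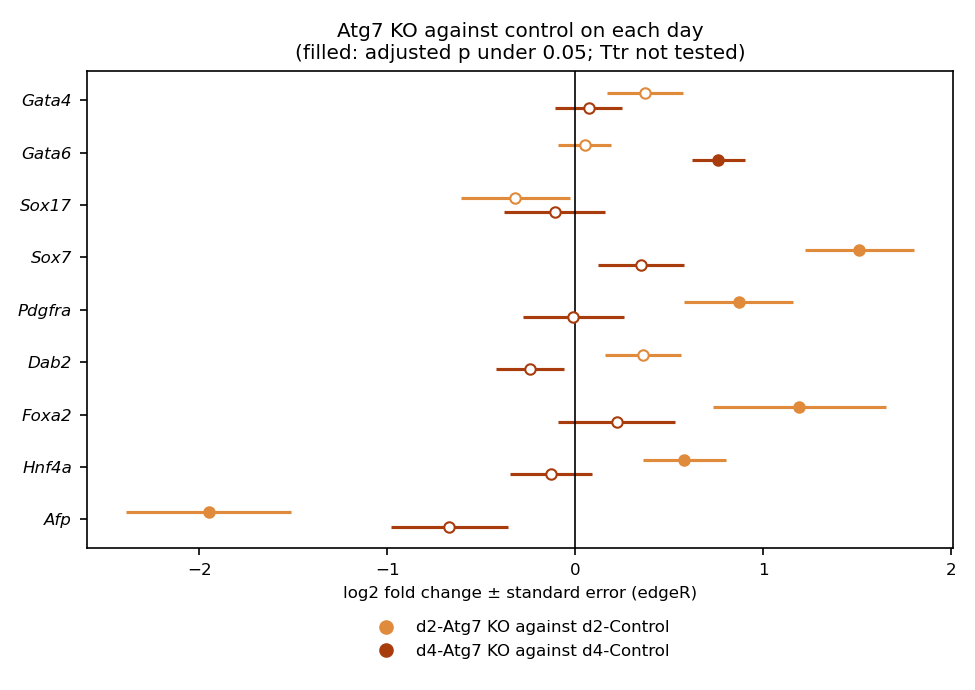
Log2 fold change ± standard error (edgeR) of KO against control for the 9 tested genes at day 2 (orange) and day 4 (dark red), where filled points have an adjusted p under 0.05. Sox7 (1.51) and Afp (-1.95) lie farthest from 0 at day 2, and Gata6 (0.76) is the filled point at day 4.

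Sox7 had the clearest increase at day 2. Its KO libraries had 7.13, 4.2 and 4.80 CPM and its control libraries 1.28, 2.22 and 2.03 CPM, with no overlap. The difference was 1.51 ± 0.29 (2.86-fold, edgeR adjusted p = 0.000659), which left Sox7 well below its day 4 level in control of 19.4 ± 2.14 CPM. The day 4 KO libraries of Sox7 had 23.7, 26.2 and 24.5 CPM and the control libraries 21.7, 19 and 17.5 CPM. Those groups did not overlap (27.6% of all tested genes had KO wholly above), but the difference of 0.35 ± 0.23 did not pass (edgeR adjusted p = 0.24). The KO effect was smaller at day 4 than at day 2, by a difference of -1.16 ± 0.37 (edgeR adjusted p = 0.0224). That difference did not pass without d2-Control replicate 1 (-0.97), d2-Atg7 KO replicate 1 (-0.91) or d4-Control replicate 1 (-1.07).

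Pdgfra had KO levels of 42.0, 36.1 and 35.2 CPM at day 2, against 21.4, 20.8 and 19.7 CPM in control, a difference of 0.87 ± 0.29 (edgeR adjusted p = 0.0229). Foxa2 had 20, 10 and 17 counts in KO and 4, 6 and 9 in control, higher by 1.19 ± 0.46 (edgeR adjusted p = 0.0475). Hnf4a had 5.65, 6.65 and 7.24 CPM in KO, against 3.46, 4.11 and 5.4 CPM in control, and was higher by 0.58 ± 0.22 (edgeR adjusted p = 0.0442). For each of the 3 genes every KO library was above every control library, as in 29.6% of all tested genes. These 3 calls were close to the threshold, and leaving out 1 library often lost them. Without 1 library the values were 0.79 to 0.92 for Pdgfra, 0.90 to 1.47 for Foxa2 and 0.45 to 0.78 for Hnf4a. In a fit of both day 2 groups alone, 8 of the set were tested, with 5 higher in KO and 1 lower. Pdgfra did not pass without d2-Control replicate 1 (0.90), 2 (0.88) or 3 (0.84) or d2-Atg7 KO replicate 1 (0.79), nor with DESeq2 (0.88, adjusted p = 0.0695). Foxa2 did not pass without d2-Control replicate 1 (1.04), 2 (1.14) or 3 (1.44) or d2-Atg7 KO replicate 1 (0.90) or 3 (1.17), nor with the replicate block (1.16, edgeR adjusted p = 0.052) or without the filter on low counts (1.19, edgeR adjusted p = 0.0547). Hnf4a did not pass without d2-Control replicate 1 (0.45) or 2 (0.55) or d2-Atg7 KO replicate 2 (0.57) or 3 (0.50). At day 4 Pdgfra (-0.01 ± 0.27), Foxa2 (0.22 ± 0.31) and Hnf4a (-0.13 ± 0.22) did not pass.

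Afp went the other way from these genes at day 2. It had 1, 10 and 12 counts in KO and 28, 22 and 32 in control, or 0.326 ± 0.245 against 1.33 ± 0.266 CPM. It was lower by a log2 change of -1.95 ± 0.44 (edgeR adjusted p = 0.00214), a call kept in each of the 6 refits without 1 library (-2.40 to -1.50). At day 4 the KO libraries had 65, 39 and 57 counts and the control libraries 92, 74 and 87, and in CPM every KO library was again below every control library, as in 27.2% of all tested genes. The day 4 difference of -0.67 ± 0.31 did not pass (edgeR adjusted p = 0.101).

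Gata6 at day 2 had 80, 88.5 and 93.7 CPM in KO, overlapping the 93.7, 75.7 and 84.4 CPM of control, a difference of 0.05 ± 0.14 that did not pass (edgeR adjusted p = 0.813). At day 4 its KO libraries had 143, 144 and 138 CPM, against 81.7, 83.2 and 86.0 CPM in control. The groups were far apart, and KO was higher by 0.76 ± 0.14 (1.70-fold, edgeR adjusted p = 0.000538), between 0.75 and 0.78 without any 1 of the 6 libraries compared. The KO effect was larger at day 4, by 0.71 ± 0.20 (edgeR adjusted p = 0.0108), although DESeq2 gave that difference an adjusted p of 0.0664. Gata6 lies on chromosome 18, whose 408 tested genes had a median KO effect of 0.56 at day 2 and 0.01 at day 4, while the medians of the other autosomes and X were between -0.10 and 0.08 at day 2. Gata6 was thus below the median of its chromosome at day 2 and above it at day 4, and its difference between days was opposite in sign to the chromosome's median of -0.59.

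Gata4, Sox17 and Dab2 did not pass on either day. Gata4 was 14.5 ± 2.87 CPM in KO, against 11.2 ± 0.601 CPM in control, at day 2 (0.37 ± 0.20), and 33.9 ± 2.17 and 32.4 ± 5.67 CPM at day 4 (0.07 ± 0.18). Dab2 was 41.1 ± 6.37 and 32 ± 1.31 CPM at day 2 (0.36 ± 0.20), and 136 ± 15.2 and 160 ± 37.5 CPM at day 4 (-0.24 ± 0.18). Sox17 was 2.77 ± 0.423 and 3.47 ± 0.559 CPM at day 2 (-0.32 ± 0.29), and 6.20 ± 1.53 and 6.68 ± 0.696 CPM at day 4 (-0.11 ± 0.27). The standard errors draw on all 5 groups, the uneven ESC libraries among them. In a fit of both day 2 groups alone, Gata4 (0.38, edgeR adjusted p = 0.0162) and Dab2 (0.37, edgeR adjusted p = 0.00171) passed as higher in KO, and in a fit of both day 4 groups alone Sox7 (0.35) passed as higher and Afp (-0.68) as lower. Ttr had 5 counts in KO and 3 in control over the libraries of day 2, and 15 and 14 over those of day 4.

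The summed level of the fibroblast genes lay above control in every KO library on both days. It was 568 to 975 CPM in KO, against 362 to 409 CPM in control, at day 2, and 207 to 273 CPM and 137 to 145 CPM at day 4, with 5 and 3 of the 16 genes called higher and the rest not passing. Within the day 2 KO libraries, replicate 2 had the largest fibroblast sum (975 CPM) and the lowest Gata4 (11.3 CPM), Sox7 (4.2 CPM), Dab2 (34.8 CPM) and Foxa2 (0.416 CPM). With the feeder score as a covariate, Pdgfra at day 2 was 0.14 (edgeR adjusted p = 0.642) and Foxa2 1.22 (edgeR adjusted p = 0.198), neither passing, while Gata4 passed at 0.92 (edgeR adjusted p = 9.47e-05). At day 4 with that covariate, Gata6 (1.10), Gata4 (0.71) and Sox17 (0.75) passed as higher and Pdgfra (-0.85) as lower. The feeder score itself was 6.51 to 7.49 in KO and 5.4 to 5.69 in control at day 2. At day 4 it was 4.28 to 4.74 and 2.79 to 3.04. KO and control did not overlap in the score on either day, so the covariate cannot tell the score and the KO apart. The source of the fibroblast RNA and its part in the KO differences were not tested. Among other cell types, the mesoderm and cardiac sum at day 2 lay at 7.37 to 7.82 CPM in KO, below the 10.6 to 10.9 CPM of control. Of its 7 tested genes, 1 was higher in KO, 2 were lower and 4 did not pass. Myh6 had 2.58 CPM in KO, against 4.83 CPM in control, while Tbx6 had 2.38 CPM, against 1.4 CPM. The mesoderm and cardiac sum at day 4 was 8.09 to 9.35 CPM in KO, also below the 13.1 to 15.1 CPM of control. The sum of 9 genes of the 2-cell-like state at day 4 lay at 65.4 to 69.8 CPM in KO, below the 372 to 473 CPM of control. At day 2 that sum was 9.21 to 15.2 CPM in KO and 40.8 to 55.2 CPM in control. Among 8 endothelial genes, which are of interest because endothelium expresses Sox7 and Sox17, Emcn had 0 counts in both KO groups and in control at day 4. Of the 7 tested at day 2, 1 was higher in KO (Pecam1, 341 against 298 CPM, which makes up most of the sum of 377 to 383 against 327 to 337 CPM) and 2 were lower (Kdr, 0.368 against 1.5 CPM, and Cldn5, 1.70 against 3.62 CPM). Of 8 trophoblast genes 4 were tested, and at day 2, 3 were lower in KO (Hand1, 0.507 against 4.52 CPM, Krt7, 2.57 against 6.29 CPM, and Gata3) and Tfap2c was higher (52.5 against 34.2 CPM). Their sum was 63.6 to 68.0 CPM in KO, against 59.4 to 68.7 CPM in control, at day 2 and 28.7 to 32.3 CPM, against 44.2 to 49.8 CPM, at day 4, with Tpbpa at 0 counts in KO.

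Within KO cells the endoderm genes also rose from day 2 to day 4, in 8 of 9 cases, against 31.2% higher and 32% lower among all tested genes, and Hnf4a, at 0.21 ± 0.22, did not pass. Gata6 rose by 0.70 ± 0.14 (edgeR adjusted p = 0.000408), a step that did not pass in control. Afp rose by 3.26 ± 0.41 (edgeR adjusted p = 3.38e-06) and Sox7 by 2.21 ± 0.25 (edgeR adjusted p = 9.18e-07). The rise of Pdgfra, 0.80 ± 0.28 (edgeR adjusted p = 0.0185), did not pass without d2-Atg7 KO replicate 2 (0.76) or 3 (0.75), without d4-Atg7 KO replicate 2 (0.73), or with DESeq2 (adjusted p = 0.0668). With the feeder score as a covariate, Gata4 (0.23), Gata6 (0.15) and Foxa2 (2.03) did not pass within KO and Sox17 was -0.22. The change of the KO effect from day 2 to day 4 passed for 2 of the 9 genes (Gata6 and Sox7), where 36.1% of all tested genes passed.

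Other genes of the endoderm programme, listed by role, were examined beside the 10. Of 15 factors, paralogs and partners, 11 were tested, and from ESC to day 4 in control 5 rose and 3 fell, with a median of 0.64. Eomes, a T-box factor, went from 8.86 to 28.7 CPM (1.69 ± 0.12). Gsc, a homeobox factor of the organizer and anterior definitive endoderm, fell by 3.37 ± 0.44. Mixl1, Lhx1, Gata5 and Hnf4g had too few reads to be tested. Among 15 matrix and surface genes of primitive and parietal endoderm, 8 rose and 4 fell over the 4 days (median 1.37). Col4a1, a basement membrane collagen, went from 69.4 to 396 CPM (2.51 ± 0.11) and Podxl, a sialomucin, from 17.7 to 132 CPM (2.90 ± 0.08), while Nid1, another basement membrane gene, fell by 0.61 ± 0.07.

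Visceral endoderm genes were split. Of 20, only 11 were tested, and 6 rose and 3 fell over the 4 days (median 1.08). The endocytic receptor genes Cubn and Lrp2, whose products work with DAB2, rose most clearly, Cubn from 0.489 to 110 CPM (7.79 ± 0.44) and Lrp2 from 34.7 to 304 CPM (3.13 ± 0.13). The apolipoprotein genes Apoa2, at -6.65 ± 0.43, and Apoe, at -1.11 ± 0.08, fell, and Apoa1, Apoa4, Alb, Fga, Fgb and Fgg were among the 9 with too few reads. All 9 tested genes of the anterior and definitive endoderm list rose (median 2.80), with Krt19, a keratin, from 0.533 to 65.8 CPM, although Cer1 was too low to test. Of 19 genes of FGF and PDGF signalling 7 rose and 7 fell (median -0.06). Fgf4, the ligand that the epiblast makes, fell by 2.26 ± 0.08 and Fgfr2, a receptor of primitive endoderm, rose by 1.70 ± 0.13. Over all tested genes 36.2% were higher and 35.6% lower in this comparison.

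**Figure D5:**
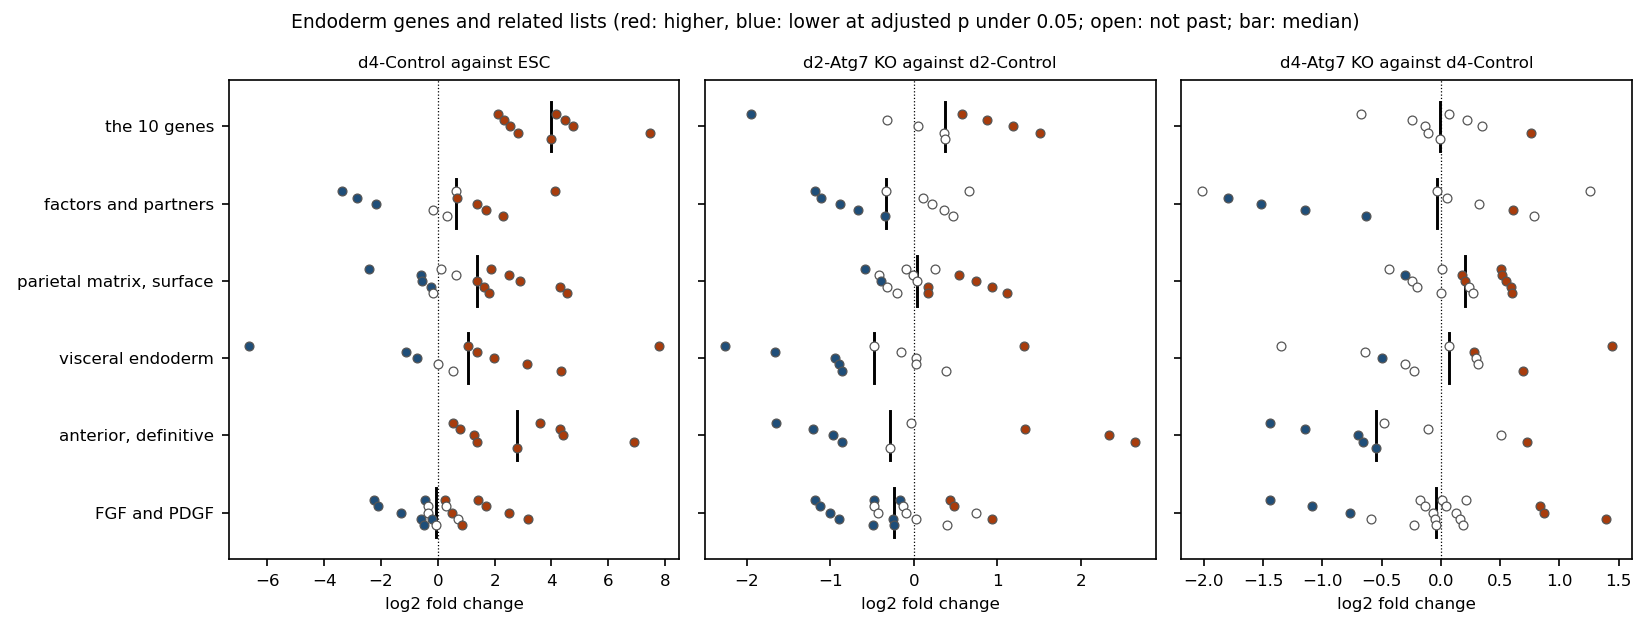
Log2 fold change of each tested gene in the 10-gene set and 5 related lists, for day 4 control against ESC and for KO against control at day 2 and day 4, where red is higher and blue lower at an adjusted p under 0.05, open points did not pass and the bar is the median. All 9 tested genes of the set are red in the first panel (median 3.99), while in the KO panels each list holds points on both sides of 0.

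The related lists were also compared between KO and control, where 20.4% of all tested genes were higher and 21.4% lower at day 2. At day 2, 5 of 11 factors were lower and the other 6 did not pass (median -0.33), Gata3 among the lower at -0.89 ± 0.15. Of the matrix and surface genes 6 of 15 were higher and 2 lower, with Lrpap1, a chaperone of endocytic receptors, higher by 0.74 ± 0.10 and Col4a1 at -0.39 ± 0.10. Of the visceral genes 1 of 11, Cubn, was higher (31.2 against 12.5 CPM, 1.32 ± 0.27) and 5 were lower, with Cited1 at -1.66 ± 0.25. Of the anterior and definitive genes 3 of 9 were higher and 4 lower, and of the signalling genes 3 of 19 were higher and 9 lower. Pdgfc, a ligand of the PDGF receptor, was higher by 0.93 ± 0.11 and Fgfr1 was at -0.48 ± 0.06. Lefty1, a Nodal inhibitor, and Epcam, an adhesion gene, were the genes of the anterior list with the smallest p in each direction, at 2.33 ± 0.24 and -0.97 ± 0.10.

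At day 4, where 19.5% of all tested genes were higher and 18.1% lower, 1 factor, Hhex, was higher (24.1 against 15.7 CPM) and 4 were lower, Gata2 at -1.80 ± 0.36 among them. Of the matrix and surface genes 7 of 15 were higher and 1, Podxl, was lower (-0.30 ± 0.07). Lamc1, a laminin gene, was higher by 0.52 ± 0.06. Of the visceral genes 3 of 11 were higher and 1, Trf, was lower, and Lrp2 had 491 CPM in KO, against 304 CPM in control (0.69 ± 0.12). Of the anterior and definitive genes 1 of 9, Lefty1, was higher (0.73 ± 0.22) and 5 were lower, and of the signalling genes 3 of 19 were higher and 3 lower. Fgf4 was higher by 0.87 ± 0.08 and Dusp6, a phosphatase that ERK signalling induces, was at -1.09 ± 0.17. Of 8 epiblast genes 4 were higher in KO at day 2 and the other 4 did not pass, with Nanog, the factor opposed to GATA6 in the blastocyst, at 1170 CPM, against 534 CPM in control (1.13 ± 0.10), and at day 4, 7 were higher and 1 lower. The lower gene was Otx2 (19.8 CPM in KO, against 29 CPM), which is also in the anterior list, as Fgf5 is in the signalling list. From ESC to day 4 in control, 1 epiblast gene was higher and 6 lower, where 36.2% of all tested genes were higher and 35.6% lower.

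Some genes ran close to single members over the 5 groups. Likeness was measured as the root mean square distance between group means of log2 CPM, each centred on its own mean, which describes 5 points only. Pth1r, a receptor gene of parietal endoderm, was the nearest gene outside the set to both Sox7 (0.30) and Foxa2 (0.27), and Zfp385b was nearest to Dab2 (0.22). F2r, a thrombin receptor gene, was nearest to Gata4 (0.10), Fbp2 to Gata6 (0.14), Plekhs1 to Pdgfra (0.09) and Peg10 to Afp (0.24). The smallest distances were those of Myot to Sox17 (0.06) and Vmn2r88 to Hnf4a (0.08), and neither gene is in the endoderm lists used here. Within the set the closest pair was Gata4 and Pdgfra (0.25), followed by Sox7 and Foxa2 (0.28), Gata4 and Sox17 (0.28) and Dab2 and Foxa2 (0.29). Reads of antisense transcripts could add to some members, since GENCODE places opposite-strand exons over Gata6 (93 bases), Sox17 (804 bases), Pdgfra (456 and 166 bases) and Dab2 (211 bases), and the sources used here do not say whether the counting used strand.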

How the data were processed

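Polyadenylated RNA of 15 libraries was measured, 3 in each of 5 groups taken from the sample titles. The authors deposited raw counts of reads per gene symbol, 1 table per library. The builds mm10 and GRCm38 and the tools featureCounts, STAR, DESeq2 and StringTie are named, per the submitters' processing notes. The sources used here do not give versions, annotation, strand or the treatment of shared reads. No pair of libraries in a group agreed within sampling noise (chi-square per degree of freedom 3.2 to 31.8 over genes with at least 20 counts).

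Genes were kept by filterByExpr (minimum count 10, minimum total 15), which left 15696 and removed 9286. The test was edgeR 4.0.16 under R 4.3.3 (TMM, quasi-likelihood, 1 mean per group over 15 libraries, 7 contrasts, Benjamini-Hochberg over all tested genes, threshold 0.05). The standard error is the log2 change over the square root of F. Chromosomes came from RefSeq (99.6% of symbols matched). The procedure was tested on simulated counts. Alternatives were scaling by RLE or by the upper quartile, no filter, a filter of 10 CPM in 3 libraries, DESeq2 1.42.0, fits of the compared groups only, a replicate block, a test against a 1.5-fold change, a feeder score as a covariate, and libraries left out.

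The members, lists, tests and alternatives were chosen with earlier results of these data known. Named are the 10 genes, up to 2 called genes per direction of each list with the smallest p, checks of labels and the nearest of 3 profiles per member. Genes listed as too low to test, Krt7, Emcn and Tpbpa were named after their values were seen. Some genes of the lists are not reported here by name.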

Additional observations from a re-analysis of the deposited data

Results flagged for a closer look

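The effect of the KO differed between day 2 and day 4 by edgeR's test of that difference for 2 of the 9 tested endoderm genes and for 10 of the 17 genes of the related lists that were followed in KO. Values are the day 4 effect minus the day 2 effect in log2. For Gata6 the difference was 0.71 ± 0.20 (edgeR adjusted p = 0.0108) and for Sox7 -1.16 ± 0.37 (edgeR adjusted p = 0.0224). Of the basement membrane and surface genes, Lamc1 differed by 0.61 ± 0.09, Col4a1 by 0.91 ± 0.15, Podxl by -0.34 ± 0.10 and Lrpap1 by -0.50 ± 0.14. Among the visceral endoderm genes the value was -1.01 ± 0.36 for Cubn, 0.84 ± 0.17 for Lrp2 and 1.43 ± 0.36 for Cited1. Lefty1, of the anterior list, differed by -1.60 ± 0.33, and of the signalling genes Fgf4 by 0.39 ± 0.11 and Fgfr1 by 0.49 ± 0.09. The difference passed for 36.1% of all tested genes. The 17 genes were those with the smallest p in a direction of their list, in KO against control at day 2 or day 4. That choice used these same libraries and favours a difference between days, so 10 of 17 cannot be set against the share of all genes.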

How the results depend on the processing

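The counts of called endoderm genes were 6 (ESC to day 2), 8 (day 2 to day 4), 9 (ESC to day 4), 5 (KO at day 2), 1 (KO at day 4), 8 (KO day 2 to day 4) and 2 (difference between days). RLE and upper quartile scaling, no filter, DESeq2 and the replicate block kept each count within 1.5 times, though not always the same genes: from ESC to day 2, Sox7 was gained with DESeq2 (0.78) and Foxa2 with upper quartile scaling (1.73), and for KO at day 2, Pdgfra was lost with DESeq2 (0.88) and Foxa2 with no filter (1.19). With no filter Ttr was tested too, and from ESC to day 2 it was the 1 gene lower, beside 6 higher. From day 2 to day 4, 9 genes were then higher, Ttr among them, in control and in KO. The stricter filter left 5 of the 10 genes, and the counts were 3, 4, 5 and 5 for the 4 time comparisons (the last within KO) and 2 for KO at day 2. Against a 1.5-fold change the counts were 2 for KO at day 2, 0 at day 4 and 0 for the difference (edgeR, with 1 and 1 at an unadjusted p under 0.05, while DESeq2 without that margin called 1 and 2, for the difference Sox7 and, at 1.29, Afp), and all genes called fell from 11072, 10741, 11257, 6556, 5903, 9922 and 5674 to 5273, 4794, 5792, 847, 614, 3655 and 846. In fits of the compared groups only they were 3 for KO at day 4 and 6 for the difference. With the feeder score they were 4 from day 2 to day 4 in control and 4 in KO, 4 for KO at day 4 and 5 for the difference, with 7099 of all genes called from ESC to day 4, and Sox17 reversed to -0.52 and -0.22 in the 2 steps from day 2 to day 4 (control and KO) and to 0.75 for KO at day 4. The cause was not tested. Without ESC replicate 3 and d2-Atg7 KO replicate 2 together they were 3 for KO at day 4 and 7 for the difference. Leaving out 1 library gave 2 to 4 for KO at day 2, with the lowest without d2-Control replicate 1 or 2, and 1 to 3 for the difference. The replicate block gave 7, 8, 9, 4, 1, 8 and 2 called genes, with Foxa2 gained from ESC to day 2 (1.72) and lost for KO at day 2 (1.16). The numbers do not pair the libraries (correlations of deviations -0.10 to 0.08 for equal and -0.11 to 0.11 for unequal numbers). Depth limits Ttr, with at most 7 counts per library, and the ESC values of Afp and Foxa2.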
